A study of Mus musculus with 45 samples.

Results

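The genes described here are the 10 regulators and targets of the Nrf2 antioxidant pathway chosen as known members: *Nfe2l2*, *Keap1*, *Nqo1*, *Srxn1*, *Hmox1*, *Gclc*, *Gclm*, *Gsr*, *Slc7a11* and *Txnrd1*. They were chosen for their role, with earlier results of these data known. All 10 were among the 39179 Ensembl genes that were counted, and all 10 passed the detection filter of more than 4 aligned reads in any mouse, as did 17464 genes in total. Hepatic RNA from 45 female C57BL/6 mice was sequenced, with 9 groups of 5 animals. The mice were gavaged at intervals of 4 days over 28 days, from soon after weaning, with sesame oil alone (vehicle) or with TCDD in the oil. The 8 TCDD doses were 0.01 and 0.03 µg/kg, 0.1 and 0.3 µg/kg, 1 and 3 µg/kg, and 10 and 30 µg/kg. TCDD is a persistent dioxin that activates the aryl hydrocarbon receptor (AhR). The sample labels call all the mice ovariectomized and also carry the word daily, neither of which is in the methods of the study. No group carried a transgene or a deleted gene, and the vehicle mice received the same oil as the dosed mice.

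The *Nfe2l2* gene encodes Nrf2, a transcription factor that in resting cells is held by Keap1, which hands it to a Cul3 ubiquitin ligase for breakdown. When electrophiles or oxidants modify Keap1, Nrf2 escapes, pairs with a small Maf protein and binds antioxidant response elements. Its targets make glutathione, reduce thioredoxin, quinones and oxidized peroxiredoxins, and break down heme. In liver the pathway is known for its part in the clearance of reactive metabolites, and *Nqo1* is also a classical member of the AhR gene battery.

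Promoter sequence is shown for the 3 genes with the clearest increase (*Nfe2l2*, *Nqo1* and *Srxn1*) and for 2 members that did not pass the test at any dose (*Gclm* and *Txnrd1*), as examples of windows with and without the core letters of the antioxidant response element and of the dioxin response element bound by AhR. Of the 3 *Txnrd1* windows, the one with an antioxidant core is shown. The sequences are from RefSeq on the GRCm38.p6 build, run from base -250 relative to the annotated start site, and are written 5' to 3' on the strand of the gene. The antioxidant response element core was searched as TGACNNNGC and the dioxin response element core as GCGTG, each on both strands, and the letters of a match are in capitals. A match to one can share bases with a match to the other. Bases that lie in an annotated exon of the gene itself were left out at the end of a sequence.
*Nfe2l2*, chr2:75704664-75704913, minus strand: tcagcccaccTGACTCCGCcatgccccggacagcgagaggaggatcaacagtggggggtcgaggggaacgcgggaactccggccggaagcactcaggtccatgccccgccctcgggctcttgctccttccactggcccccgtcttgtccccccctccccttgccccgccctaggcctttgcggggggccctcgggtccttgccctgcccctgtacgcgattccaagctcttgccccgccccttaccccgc
*Nqo1*, chr8:107403207-107403455, minus strand: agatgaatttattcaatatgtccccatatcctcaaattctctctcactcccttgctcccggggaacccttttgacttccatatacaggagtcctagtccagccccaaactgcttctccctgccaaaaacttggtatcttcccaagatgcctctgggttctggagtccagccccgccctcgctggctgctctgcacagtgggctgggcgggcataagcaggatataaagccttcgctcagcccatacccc
*Srxn1*, chr2:152105274-152105515, plus strand: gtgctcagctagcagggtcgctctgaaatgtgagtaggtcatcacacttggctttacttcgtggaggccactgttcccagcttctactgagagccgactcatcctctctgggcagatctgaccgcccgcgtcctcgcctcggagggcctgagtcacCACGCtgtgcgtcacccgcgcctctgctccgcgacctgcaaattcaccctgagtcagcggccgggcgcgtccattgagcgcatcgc
*Gclm*, chr3:122245307-122245556, plus strand: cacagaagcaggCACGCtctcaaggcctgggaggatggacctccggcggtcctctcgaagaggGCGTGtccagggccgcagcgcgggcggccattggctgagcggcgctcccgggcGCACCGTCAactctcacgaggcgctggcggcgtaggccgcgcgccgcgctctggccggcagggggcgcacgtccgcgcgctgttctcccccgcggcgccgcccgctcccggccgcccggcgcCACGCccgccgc
*Txnrd1*, the second of its 3 annotated starts, chr10:82858956-82859178, plus strand: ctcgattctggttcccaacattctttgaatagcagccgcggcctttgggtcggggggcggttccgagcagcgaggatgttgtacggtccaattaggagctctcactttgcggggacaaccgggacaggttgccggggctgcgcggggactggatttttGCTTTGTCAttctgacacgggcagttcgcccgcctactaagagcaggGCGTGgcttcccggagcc

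In these windows of 250 bases, *Nfe2l2* had a single match to the antioxidant core at base -240 and none to the dioxin core. Of this window 144 bases are also in an exon of the noncoding gene *E030042O20Rik* on the opposite strand. *Nqo1* had neither core and *Srxn1* had a dioxin core at base -94. *Gclm*, which was not called at any dose, had an antioxidant core at base -134 and 3 dioxin cores, and the *Txnrd1* window had an antioxidant core at base -92 and a dioxin core at base -45. Of this *Txnrd1* window 52 bases are also in an exon of *Gm38560* on the opposite strand. The other *Txnrd1* windows had no antioxidant core and a dioxin core each, at bases -100 and -19. *Keap1* had a dioxin core at base -185 and *Slc7a11* had neither. Over all 32851 windows of this length in the table, 10.2% held the antioxidant core and 28.2% held the dioxin core. A missing core says only that these letters are not in the window. Of the 10 genes, 7 had an entry in the table, and *Hmox1*, *Gclc* and *Gsr* had none.

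The depth on genes ran from 11.8 M to 56.5 M reads in a mouse (median 17.2 M). Each member except *Slc7a11* had at least 88 reads in every mouse, the lowest being for *Hmox1*. Levels are given as CPM, the read count per 1 M reads on genes after TMM scaling. The labelled tissue fit its markers, since the 6 hepatocyte markers summed to between 102530 and 157470 CPM in the vehicle, 0.01 and 30 µg/kg mice. One library stood apart from its group. Mouse 5 of the 0.01 µg/kg group had 860 CPM over 7 macrophage markers, against 123 to 258 CPM in the other 4 mice of that dose, and 69.7 CPM of *Cyp1a1*, the AhR target that marks dioxin exposure, against 1.18 to 4.54 CPM. The results below were also computed without this mouse, and every call of a member at any dose was kept. In bulk liver RNA, fewer cells of a type and less RNA per cell cannot be told apart.

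The 8 doses gave 80 comparisons of a member with the vehicle, of which 13 were higher and 0 were lower at an adjusted p under 0.05 (edgeR quasi-likelihood test, Benjamini-Hochberg adjustment over all genes tested within a dose). DESeq2 also called 0 lower, and 0 were lower at an unadjusted p under 0.05. All 8 comparisons used the same 5 vehicle mice, so they are not independent of each other. At 0.01, 0.03 and 0.1 µg/kg no member was called by edgeR or by DESeq2, where edgeR called 0%, 0.0344% and 0.0229% of all genes tested as higher. For the lowest of these doses, 1090 genes were higher at an unadjusted p under 0.05 and DESeq2 called 24 higher. At an unadjusted p under 0.05, the lowest dose had *Gclc* higher, the next had *Gclc* and *Gclm*, and the third had *Txnrd1*. Of the 17464 genes tested, 1003 and 594 were higher by this criterion at 0.03 and 0.1 µg/kg. Over the remaining doses, from 0.3 up to 30 µg/kg, the number of members called higher was 1, 2, 2, 3 and 5 in turn. The count of 5 includes *Slc7a11*, which passed the detection filter only through mice dosed with 3 µg/kg or more, so its call is no support for the members as a group, and without it the count was 4. The share of all genes called higher was 0.321%, 1.24%, 4.34%, 8.47% and 15.5%. At 30 µg/kg, 14.1% of all genes were called lower, and none of the 10 members was. The median log2 fold change of the 10 members at 30 µg/kg was 0.56, and that of all genes tested was 0.02. The 0.56 includes *Slc7a11*, and without it the middle value was that of *Gsr*, 0.23.

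**Figure D1:**
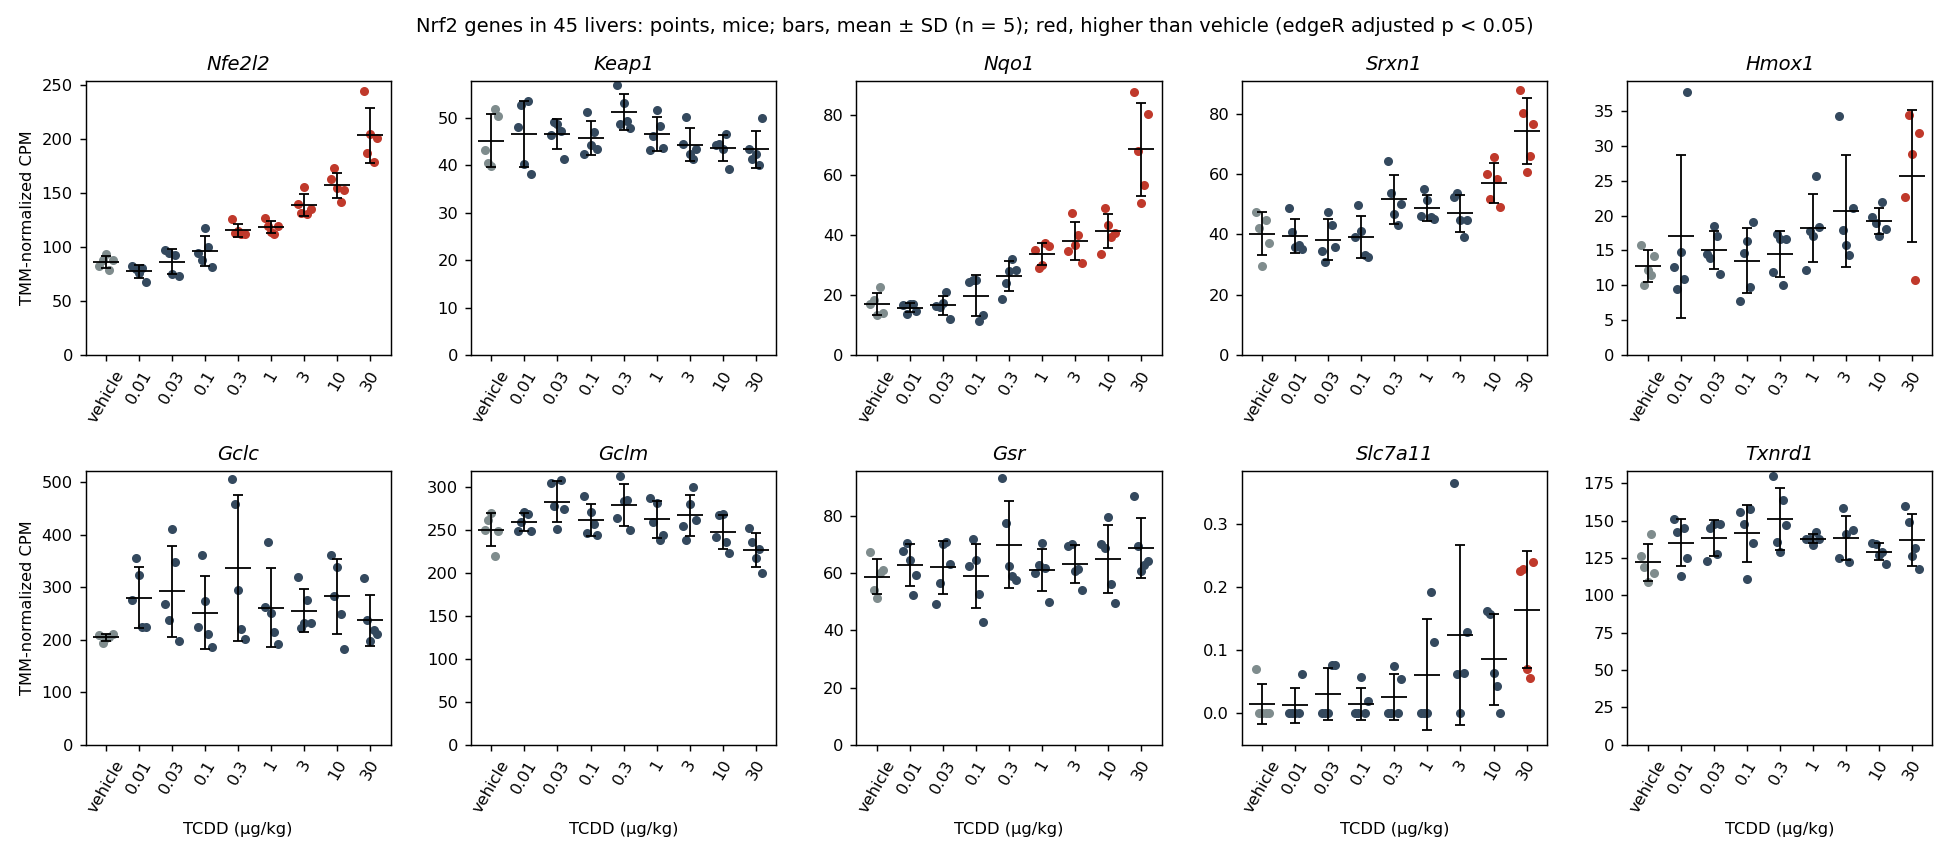
TMM-normalized CPM of each member (y axis) by TCDD dose in µg/kg (x axis), with 1 point per mouse, bars for the mean ± SD of 5 mice, and red points where the dose was higher than vehicle at an adjusted p under 0.05. *Nfe2l2* rose to a mean of 203 CPM and *Nqo1* to 68.5 CPM at 30 µg/kg, while the points of *Keap1*, *Gclm* and *Txnrd1* overlapped those of the vehicle at every dose.

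Of the regulators, the gene for Nrf2 rose with dose and the gene for its inhibitor was not called at any dose. *Nfe2l2* (chr2:75675513-75704641, GRCm38, minus strand) was at 82.2, 88.2, 93.9, 79.03 and 88.5 CPM in the vehicle mice and at 245, 187, 205, 179 and 201 CPM in the 30 µg/kg mice. The lowest mouse at 30 µg/kg had nearly double the highest vehicle level, and the groups did not overlap. The increase was 2.36-fold (log2 fold change 1.24 ± 0.09 SE, adjusted p = 3.53e-14 by edgeR). It was the first member to be called, at 0.3 µg/kg, where its 5 mice had between 112 and 126.5 CPM, all above the vehicle mice. That early change was 0.42 ± 0.09 on the log2 scale (adjusted p = 0.0164 by edgeR). It was lost without vehicle mouse 1 or 4 or without 0.3 µg/kg mouse 1 (adjusted p of up to 0.0660), and in a fit of only the vehicle and 0.3 µg/kg mice (adjusted p = 0.0721).

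With 1, 3 and 10 µg/kg the mean of *Nfe2l2* was 119, 139 and 157 CPM. These were increases of 0.46, 0.68 and 0.86 on the log2 scale, with adjusted p-values of 0.00169, 6.72e-07 and 1.28e-09 by edgeR. From 0.3 µg/kg on, no treated mouse fell within the vehicle range. Every treated mouse was above every vehicle mouse in 163, 478, 803, 1415 and 1806 of the 17464 genes tested at these doses in turn.

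*Keap1* (chr9:21229730-21239361, minus strand), the redox sensor that binds Nrf2, was at 43.3, 40.5, 39.9, 51.9 and 50.4 CPM in the vehicle mice. At 30 µg/kg it was at 43.4, 41.3, 42.4, 40.1 and 50.1 CPM, wholly inside the vehicle range. The log2 fold change was -0.06, with a 95% interval from -0.24 to 0.12, so a change as large as that of *Nfe2l2* lay outside it. Its highest group mean, 51.3 ± 3.72 CPM (SD, n = 5), was at 0.3 µg/kg and had an adjusted p of 0.471 by edgeR. The sign at 30 µg/kg turned to 0.16 without TMM scaling, a setting that moved the median of all genes to 0.23. Of the exon bases of *Keap1*, 10.9% are shared with *Gm16754* on the opposite strand, which had 177 reads over all mice, and the strand setting of the counting is not stated.

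Among the enzymes that act on quinones, oxidized peroxiredoxins and heme, all 3 were higher at 30 µg/kg. *Nqo1* (chr8:107388225-107403206, minus strand) encodes the quinone reductase that spares cells from redox cycling. Its levels were 17.0, 18.2, 13.3, 22.6 and 13.9 CPM in the vehicle mice and 87.4, 67.8, 50.6, 56.5 and 80.3 CPM in the 30 µg/kg mice. No mouse at 30 µg/kg had less than 2 times the highest vehicle level, and the groups did not overlap. The increase was 4.03-fold (log2 fold change 2.01 ± 0.19 SE, adjusted p = 1.53e-11 by edgeR). At 1 µg/kg *Nqo1* was first called, with 34.9, 29.2, 30.1, 37.2 and 36.3 CPM and a log2 fold change of 0.98 (adjusted p = 0.000718 by edgeR). Its means changed little from 1 to 10 µg/kg, from 33.5 to 41.3 CPM, before reaching 68.5 CPM at 30 µg/kg.

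*Srxn1* (chr2:152105516-152111376, plus strand) encodes sulfiredoxin, which repairs overoxidized peroxiredoxins. It was at 47.5, 42.1, 29.6, 44.8 and 37.3 CPM in the vehicle mice and at 87.9, 80.1, 60.7, 65.96 and 76.5 CPM in the 30 µg/kg mice. The lowest treated mouse was above the highest vehicle mouse. The increase was 1.84-fold (log2 fold change 0.88 ± 0.13 SE, adjusted p = 1.62e-06 by edgeR). *Srxn1* was also called at 10 µg/kg, where its log2 fold change was 0.50 (adjusted p = 0.00689) and its mice lay between 49.1 and 65.5 CPM.

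*Hmox1* (chr8:75093621-75100589, plus strand) encodes the inducible heme oxygenase. It was at 15.8, 10.0, 12.2, 11.4 and 14.2 CPM in the vehicle mice and at 22.7, 34.4, 28.8, 10.8 and 31.9 CPM in the 30 µg/kg mice. Of the treated mice 4 lay above every vehicle mouse, and mouse 4 lay within the vehicle range. The increase was 2.02-fold (log2 fold change 1.01 ± 0.29 SE, adjusted p = 0.00663 by edgeR), and 30 µg/kg was the only dose at which it was called. Without the 0.01 µg/kg mouse that stood apart, the log2 fold change was 1.00 with an adjusted p of 0.00117. At 10 µg/kg its 5 mice, with 17.1 to 22.01 CPM, were above every vehicle mouse, as in 1415 of the 17464 genes tested. The log2 fold change of 0.59 there had an adjusted p of 0.164.

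**Figure D2:**
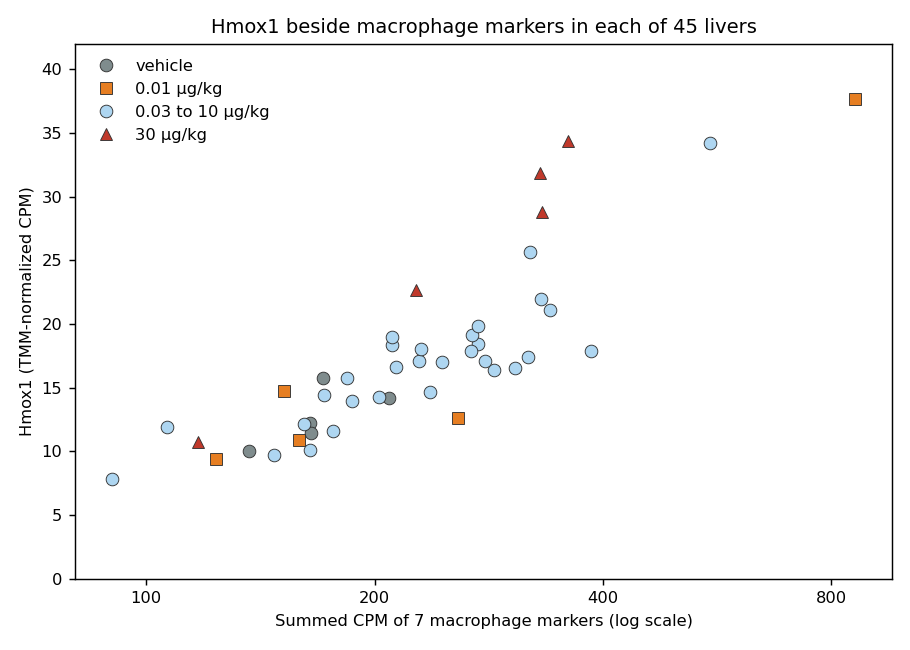
*Hmox1* in CPM (y axis) against the summed CPM of 7 macrophage markers on a log scale (x axis), with 1 point for each of 45 livers and the symbols showing the dose group. The mouse with the highest *Hmox1*, 37.7 CPM in the 0.01 µg/kg group, also had the highest marker sum, 860 CPM, and the 30 µg/kg mouse with 10.8 CPM of *Hmox1* had a marker sum of 117 CPM.

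Macrophage markers went with *Hmox1* in several mice, and no measure over the 45 mice was computed. The markers were *Adgre1*, *Cd68*, *Clec4f*, *Marco*, *Csf1r*, *Cd5l* and *Itgax*, all 7 of which were detected and 3 of which were called higher at 30 µg/kg. Their sum ranged from 137 to 209 CPM in the vehicle mice and from 117 to 360 CPM in the 30 µg/kg mice. The 30 µg/kg mouse with 10.8 CPM of *Hmox1* had the lowest sum of its group, and the other 4 mice had sums of 227 to 360 CPM. The 3 mice highest in *Hmox1* over the whole study were 0.01 µg/kg mouse 5, 30 µg/kg mouse 2 and 3 µg/kg mouse 1, and they had ranks 1, 4 and 2 of 45 in the marker sum. Other mice differed more between the ranks. Mouse 1 of the 30 µg/kg group had rank 7 in *Hmox1* and 23 in the sum, and 1 µg/kg mouse 2 had 17 and 3. The macrophages of liver recycle heme and carry *Hmox1*, and the part of these cells in the increase was not tested.

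By the stricter criterion of an adjusted p under 0.05 and a fold change of at least 2, *Nqo1* was the 1 member to pass at 3 and at 10 µg/kg, and 4 members passed at 30 µg/kg (*Nqo1*, *Nfe2l2*, *Hmox1* and *Slc7a11*, the last of which passed the detection filter only through dosed mice). Of all genes tested, 2.15%, 3.81% and 8.03% passed upward at these doses. *Hmox1*, at 2.02-fold, was just inside the criterion and *Srxn1*, at 1.84-fold, just outside it. In 3 of the 10 members every mouse at 30 µg/kg was above every vehicle mouse, which held for 10.3% of all genes tested.

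The members that make and recycle glutathione were not called, apart from *Slc7a11* at 30 µg/kg. *Gclc* and *Gclm* encode the catalytic and modifier subunits of glutamate cysteine ligase, the rate-limiting enzyme of glutathione synthesis. *Gclm* (chr3:122245557-122270732, plus strand) was at 251, 262, 271, 220 and 248 CPM in the vehicle mice and at 253, 236, 218, 228 and 201 CPM at 30 µg/kg. The groups overlapped, and the log2 fold change of -0.14 had a 95% interval from -0.30 to 0.02 (adjusted p = 0.185 by edgeR). Without TMM scaling its sign turned, to 0.08.

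*Gclc* (chr9:77754535-77794485, plus strand) had a narrow vehicle group. Its 5 vehicle mice were within 195 to 211 CPM, a coefficient of variation of 3.03%, while in the dosed groups that coefficient ran from 15.9% to 41.3%. At 0.3 µg/kg the mice had 506, 459, 295, 221 and 201 CPM, so that mouse 1 and mouse 2 had more than 2 times the level of the vehicle mice while mouse 5 was among them. At 30 µg/kg they had 318, 238, 197, 220 and 211 CPM, with 4 mice above and 1 inside the vehicle range. Every mouse was above every vehicle mouse at 0.01 and at 3 µg/kg, which held for 132 and 803 of the 17464 genes tested. No dose was called: the log2 fold change ran from 0.21 at 30 µg/kg to 0.72 at 0.3 µg/kg, and the lowest adjusted p was 0.150, at 10 µg/kg. In a fit of only the vehicle and 10 µg/kg mice, *Gclc* and *Hmox1* were both called at 10 µg/kg, which brought the count there to 5.

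*Gsr* (chr8:33652523-33698163, plus strand), which encodes glutathione reductase, was at 67.3, 54.2, 51.3, 59.9 and 61.2 CPM in the vehicle mice and at 86.8, 69.5, 60.9, 62.8 and 64.1 CPM at 30 µg/kg. Of the treated mice 2 were above the vehicle range and 3 within it. The log2 fold change was 0.23, with a 95% interval from -0.05 to 0.51 (adjusted p = 0.222 by edgeR). Without TMM scaling it was called at 0.45 (adjusted p = 0.0181).

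*Slc7a11* (chr3:49892526-50443614, minus strand), which encodes the cystine importer subunit xCT, was at the edge of detection. Only 1 read was counted over all 5 vehicle mice, in mouse 1, and 5, 4, 2, 1 and 3 reads in the 30 µg/kg mice. Per read on genes after TMM scaling this was a ratio of 12.5, with a 95% counting interval from 1.93 to 527 (exact, covering counting error only). The edgeR test called it at 30 µg/kg (adjusted p = 0.0281), and the call was lost when any of 7 of the 10 mice was left out (adjusted p of up to 0.0681). The filterByExpr filter removed the gene. At 3 µg/kg 13 reads and at 10 µg/kg 10 reads were counted, and neither dose was called.

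The thioredoxin arm has 1 member here. *Txnrd1* (chr10:82833951-82897712, plus strand), the cytosolic thioredoxin reductase, was at 126, 119, 109, 141 and 115 CPM in the vehicle mice and at 160, 149, 126, 132 and 118 CPM at 30 µg/kg. The 2 groups overlapped, with 2 treated mice above the vehicle range. The log2 fold change was 0.17, with a 95% interval from -0.03 to 0.37 (adjusted p = 0.212 by edgeR). Its highest group mean was 151 CPM at 0.3 µg/kg, with an adjusted p of 0.213. Without TMM scaling it was called at 30 µg/kg, at 0.39 (adjusted p = 0.00315).

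Single mice were high in several members at once. Mouse 1 of the 30 µg/kg group was the highest of its group in 7 of the 9 members other than *Slc7a11*, all but *Hmox1* and *Keap1*. Mouse 1 of the 0.3 µg/kg group was the highest of its group in 6 of the 9, with 126 CPM of *Nfe2l2*, 56.9 CPM of *Keap1*, 64.4 CPM of *Srxn1*, 506 CPM of *Gclc*, 93.2 CPM of *Gsr* and 180 CPM of *Txnrd1*. These mice were singled out after their values were seen, and no such ranking was made over all genes. Of all mice, 30 µg/kg mouse 1 had the lowest share of alignments that were not unique, 36.7%. The highest share, 55.2%, was in 0.3 µg/kg mouse 1.

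**Figure D3:**
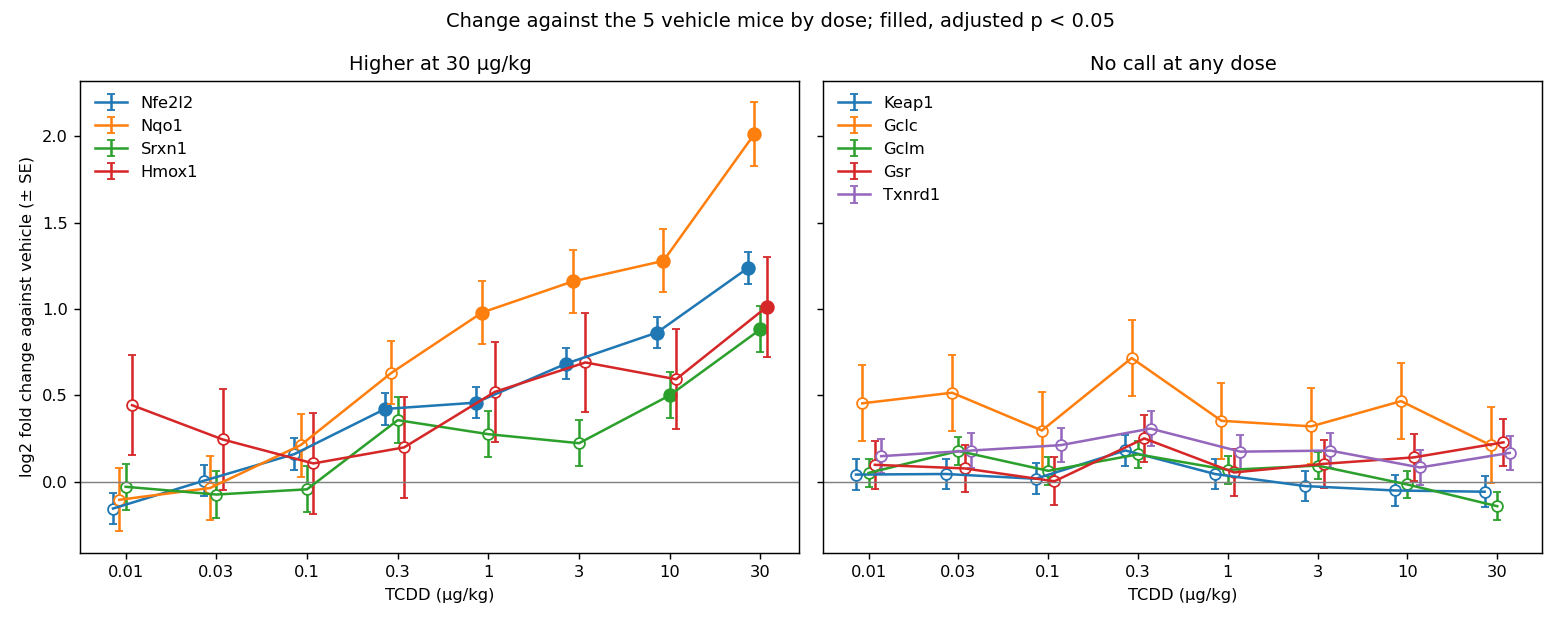
Log2 fold change against the 5 vehicle mice with its SE (y axis) by TCDD dose in µg/kg (x axis), for the 4 well-detected members called at 30 µg/kg (left) and the 5 called at no dose (right). Filled points passed an adjusted p under 0.05, and the left panel climbs to 2.01 for *Nqo1* while the right panel stays between -0.14 and 0.72.

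The midpoint of the change was estimated for the well-detected members called at 30 µg/kg. By interpolation between group means of log2 CPM on a log dose scale, the change was half-maximal at 1.04 µg/kg for *Nqo1*, 2.15 µg/kg for *Nfe2l2* and 7.49 µg/kg for *Srxn1*. Leaving out any 1 mouse moved these to between 0.852 and 1.44 µg/kg, 1.81 and 2.56 µg/kg, and 6.49 and 9.40 µg/kg. The jackknife SE of the log10 dose was 0.26 for *Nqo1*, 0.12 for *Nfe2l2* and 0.19 for *Srxn1*, so the midpoints of *Nqo1* and *Nfe2l2* were not separated beyond their error. The differences between midpoints were not tested. For *Hmox1* the midpoint was 0.881 µg/kg with means and 7.95 µg/kg with group medians, with a jackknife SE of 0.46, so no dose can be given for it. *Slc7a11* had too few reads for this estimate. No group was dosed above 30 µg/kg and *Nqo1* and *Nfe2l2* were still rising there, so these are midpoints of the change up to 30 µg/kg and not of a plateau.

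Between neighbouring doses from 0.3 to 30 µg/kg, 2 of 40 member comparisons were called. Both were from 10 to 30 µg/kg, where *Nqo1* rose by 0.73 ± 0.18 (SE) on the log2 scale (adjusted p = 0.0334 by edgeR) and *Nfe2l2* by 0.37 ± 0.09 (adjusted p = 0.0347), against 0.429% of all genes called higher at this step. In both genes every 30 µg/kg mouse was above every 10 µg/kg mouse, which held for 204 of the 17464 genes tested. Each of these calls was lost on leaving out any of 7 of the 10 mice, with adjusted p-values of up to 0.190 and 0.222. The lower steps had no called member, with 0.115%, 0.155% and 0.55% of all genes called higher from 0.3 to 1, from 1 to 3 and from 3 to 10 µg/kg. At an unadjusted p under 0.05, *Nfe2l2* was higher from 1 to 3 µg/kg and *Srxn1* from 3 to 10 µg/kg. By this criterion 703 and 861 of the 17464 genes tested were higher at these steps.

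Ratios of 2 members within a mouse do not depend on library scaling, and 4 pairs were compared between the vehicle and 30 µg/kg mice by an exact two-sided permutation test. With 5 mice against 5 the smallest p this test can give is 0.00794. The log2 ratio of *Nfe2l2* to *Keap1* went from 0.94 ± 0.25 to 2.22 ± 0.18 (SD, n = 5 each), a difference of 1.28 (exact permutation p = 0.00794, 0.0159 adjusted over the 4 pairs). The vehicle mice lay between 0.61 and 1.23 and the treated mice between 2.004 and 2.49, without overlap. The log2 ratio of *Nqo1* to *Srxn1* rose from -1.25 ± 0.20 to -0.13 ± 0.15, a difference of 1.11 (exact permutation p = 0.00794, 0.0159 adjusted), so that the 2 targets changed unequally.

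The *Gclc* to *Gclm* ratio rose by 0.33 on the log2 scale, from -0.29 ± 0.14 to 0.04 ± 0.18 (SD, n = 5 each; exact permutation p = 0.0159, 0.0212 adjusted). The highest vehicle mouse, at -0.10, was above the lowest treated mouse, at -0.14. The transcripts of the ligase subunits thus shifted relative to each other although neither gene was called. The ratio was not tested at the other doses, where single mice varied. The vehicle mice ran from -0.43 to -0.10. At 1 µg/kg the mice were at -0.13, 0.57, -0.17, -0.16 and -0.35, and at 10 µg/kg at 0.57, 0.08, 0.33, 0.07 and -0.28. Log2 fold changes against vehicle were 0.45 for *Gclc* and 0.05 for *Gclm* at 0.01 µg/kg. They were 0.72 and 0.16 at 0.3 µg/kg, and 0.21 and -0.14 at the highest dose. At every dose the value for *Gclc* was above that for *Gclm*. In the vehicle mice and at the highest dose, the *Txnrd1* to *Gsr* ratio was 1.05 ± 0.14 and 1.00 ± 0.11, a difference of -0.06 (exact permutation p = 0.413).

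**Figure D4:**
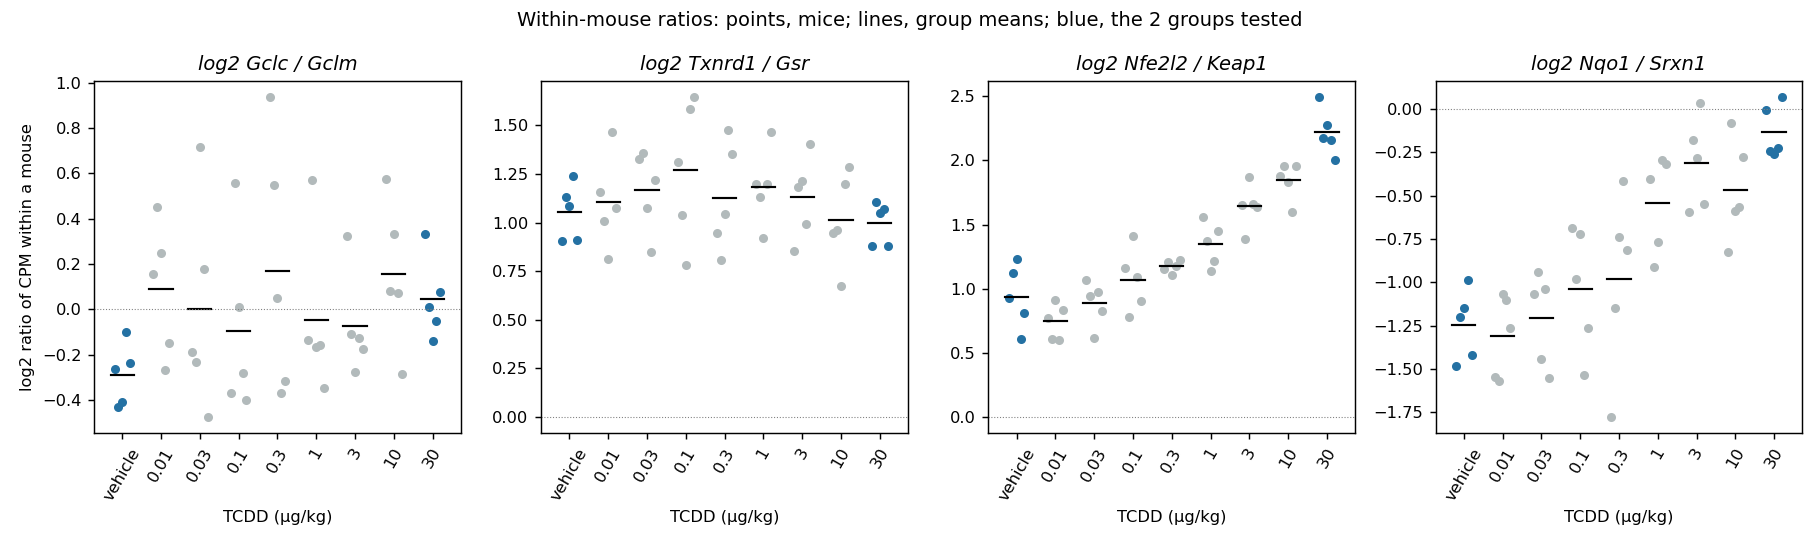
Log2 ratio of the CPM of 2 members within a mouse (y axis) by TCDD dose in µg/kg (x axis), with 1 point per mouse, lines for group means and blue for the vehicle and 30 µg/kg mice that were tested. The *Nfe2l2* to *Keap1* ratio climbs to 2.22 and the *Nqo1* to *Srxn1* ratio to -0.13, while single mice of the *Txnrd1* to *Gsr* ratio lie between 0.67 and 1.65 over all doses.

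Levels can be compared between genes only per length, here as CPM per kb of merged exons. In vehicle liver the order was *Gclc* at 54.3 ± 1.6, *Gclm* at 39.8 ± 3.0, *Nfe2l2* at 22.7 ± 1.5, *Gsr* at 21.3 ± 2.3, *Txnrd1* at 17.2 ± 1.8, *Srxn1* at 14.3 ± 2.5, *Nqo1* at 10.95 ± 2.4, *Keap1* at 9.63 ± 1.19 and *Hmox1* at 7.27 ± 1.30 CPM per kb (SD, n = 5). *Slc7a11* was last, at 0.00102 CPM per kb. The ranges of single mice were separate on both sides of *Gclm* and below *Hmox1*, and each of the other neighbours overlapped. At 30 µg/kg the order began with *Gclc* at 62.9, *Nfe2l2* at 53.6, *Nqo1* at 44.1 and *Gclm* at 36.1 CPM per kb, each overlapping the next in single mice. *Nqo1* had moved from the seventh place to the third.

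The other genes of the pathway were followed in 7 lists with 71 genes, all detected, and at 30 µg/kg 21 were higher, 14 lower and 36 not called. This is 29.6% higher and 19.7% lower, beside 15.5% and 14.1% of all genes tested, and the median log2 fold change was 0.05. The 21 include *Gpx2*, which passed the detection filter only through dosed mice. The lists did not move in 1 direction. Without TMM scaling, 30 were higher and 8 lower, and of all genes called at this dose 80.3% were higher in place of 52.3%.

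Conjugation, reduction and export genes had 9 higher, 2 lower and 6 not called of 17, with a median log2 fold change of 0.72. The largest increases were in *Cbr3*, a carbonyl reductase (2.19 ± 0.34 SE, adjusted p = 2.93e-06 by edgeR), and *Abcc4*, an efflux pump of the hepatocyte's blood side (2.01 ± 0.35, adjusted p = 1.62e-05). *Nqo2*, the relative of *Nqo1*, went the other way and fell from 174 ± 15 to 111 ± 22 CPM (SD, n = 5), by 0.64 on the log2 scale (adjusted p = 0.000345), and *Gstm1*, a glutathione transferase, fell by 0.42 (adjusted p = 0.0239).

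Glutathione synthesis and use had 6 higher, 1 lower and 5 not called of 12, with a median of 0.45. The 6 include *Gpx2*, which passed the detection filter only through dosed mice, so its call is no support for the list as a group. *Gpx2*, a glutathione peroxidase best known from gut epithelium, had 2 reads over the 5 vehicle mice and 327 reads over the 30 µg/kg mice. Per read on genes after TMM scaling the ratio was 136, with a 95% counting interval from 37.5 to 1131. *Slc3a2*, the partner subunit of xCT, rose by 0.99 ± 0.13 (SE) on the log2 scale (adjusted p = 1.41e-07 by edgeR), and *Glrx*, a glutaredoxin, fell by 0.73 (adjusted p = 0.000941).

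The thioredoxin and peroxiredoxin genes moved down more often than up, with 1 higher, 5 lower and 6 not called of 12 and a median of -0.14. *Txnrd2*, the mitochondrial relative of *Txnrd1*, fell from 35.3 ± 1.7 to 21.1 ± 1.7 CPM (log2 fold change -0.74, adjusted p = 3.24e-07 by edgeR), and *Prdx6*, a peroxiredoxin that uses glutathione, fell from 595 ± 52 to 382 ± 88 CPM (-0.64, adjusted p = 0.000223; SD, n = 5). *Txn2*, the mitochondrial thioredoxin, was higher by 0.32 (adjusted p = 0.0406). The 5 lower calls of this list were also 5 without TMM scaling.

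The partners and turnover factors of Nrf2 had 2 higher, 2 lower and 8 not called of 12, with a median of -0.15, and without TMM scaling 4 were higher and 1 lower. *Maff*, a small Maf protein, rose from 5.99 ± 1.61 to 25.4 ± 9.3 CPM (log2 fold change 2.08, adjusted p = 1.77e-05 by edgeR), and *Btrc*, a ubiquitin ligase subunit that can also turn Nrf2 over, was higher by 0.29 (adjusted p = 0.0267). *Mafg*, the more abundant small Maf, fell from 125 ± 10 to 85.6 ± 9.9 CPM (-0.55, adjusted p = 7.57e-05), and *Cul3* fell by 0.33 (adjusted p = 0.00682). All of these levels are mean ± SD of 5 mice.

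NADPH supply had 0 higher and 2 lower of 7, with a median of -0.19. *Me1*, the malic enzyme, fell by 0.79 (adjusted p = 0.0109 by edgeR) and *Idh1*, the cytosolic isocitrate dehydrogenase, by 0.36 (adjusted p = 0.00183), and without TMM scaling 2 of the 7 were higher and 0 lower. Heme breakdown and ferritin had 1 higher and 0 lower of 7, with a median of 0.15, the one being *Slc48a1*, a heme transporter (0.54, adjusted p = 2.88e-05). Superoxide and peroxide removal had 2 higher and 2 lower of 4, with a median of -0.02. *Sod3*, the secreted superoxide dismutase, rose by 1.10 (adjusted p = 3.51e-06) and *Sod2* by 0.30 (adjusted p = 0.0183), while *Sod1* fell by 0.40 (adjusted p = 0.0161) and *Cat*, catalase, by 0.34 (adjusted p = 0.00173). Without TMM scaling 0 of the 4 were lower.

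**Figure D5:**
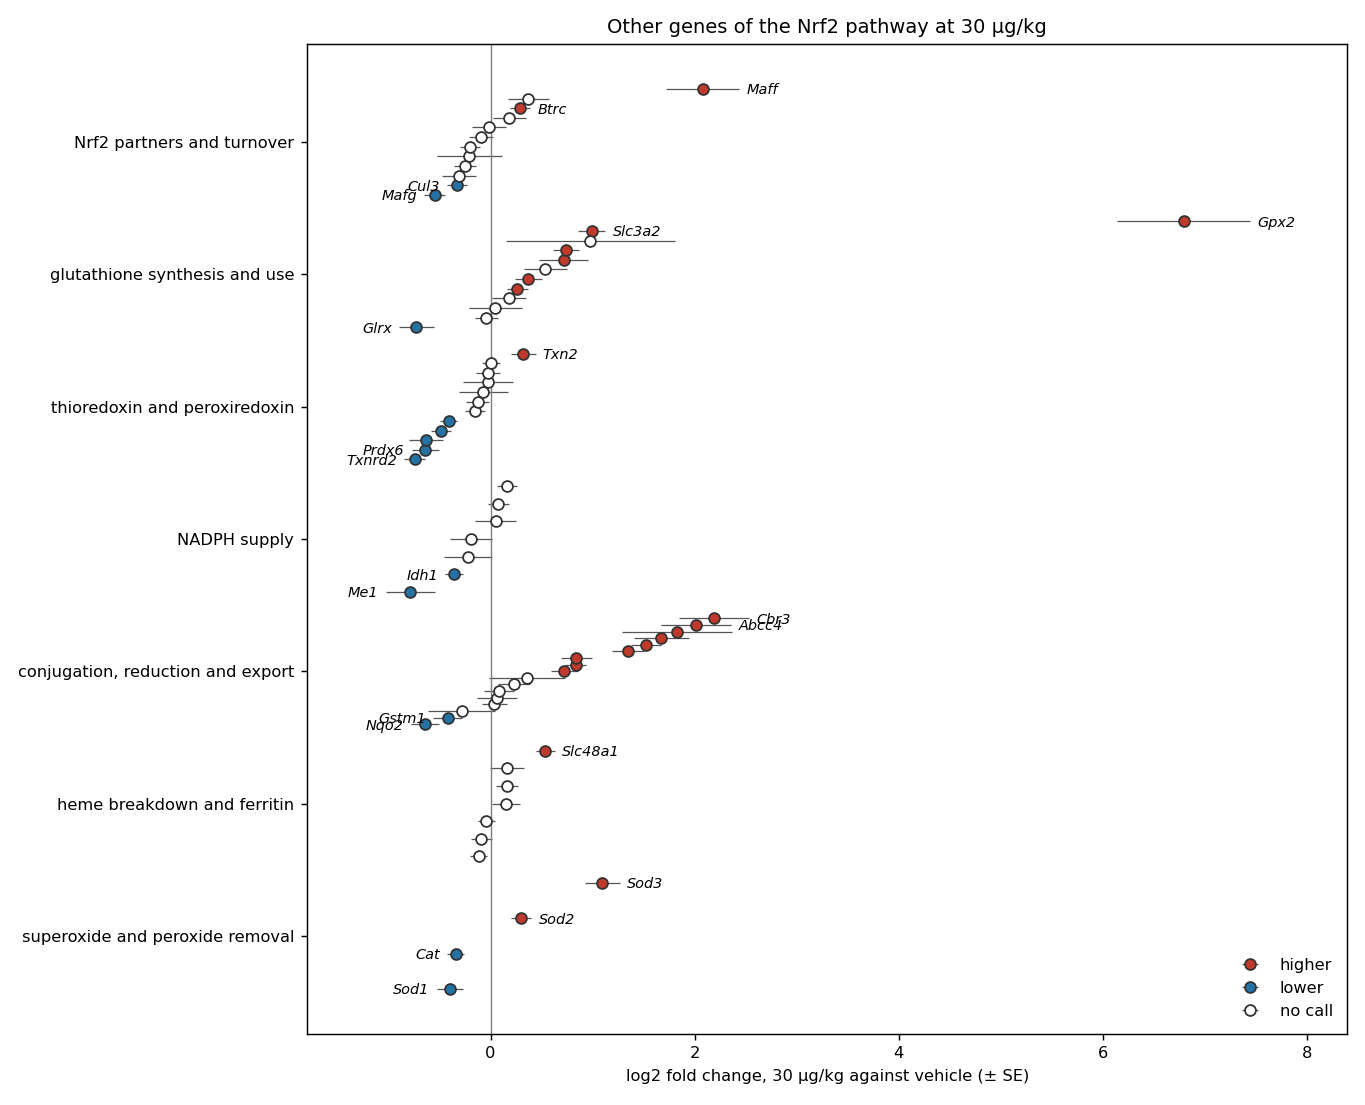
Log2 fold change at 30 µg/kg against vehicle with its SE (x axis) for 71 other genes of the pathway in 7 lists (y axis), with red for higher, blue for lower and white for no call at an adjusted p under 0.05. Conjugation, reduction and export has 9 red points, and the thioredoxin and peroxiredoxin list has 5 blue points and 1 red.

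For scale, all 7 genes of the AhR battery followed here were higher at 30 µg/kg, with a median log2 fold change of 6.69, or 4.04 with *Aldh3a1*, which had 0 reads in the vehicle mice, at its lower bound of 3 counts over the group. *Aldh3a1* passed the detection filter only through dosed mice, so its call is no support for the battery as a group. Markers of other cells also differed at this dose. Of the 6 leukocyte markers 3 were higher, of the 5 endothelial markers 3, of the 5 stellate markers 2 and of the 4 cholangiocyte markers 0, while 3 of the 6 hepatocyte markers were lower. The summed stellate markers went from 113 to 148 CPM in the vehicle mice to 245 to 371 CPM, mostly through *Reln*, whose mean went from 54.5 to 178 CPM, while *Lrat*, *Des* and *Rgs5* were not called. The summed hepatocyte markers were at 109610 to 145560 CPM in the vehicle mice and at 102530 to 153140 CPM at 30 µg/kg. The part of these cells in the members' changes was not tested.

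The genes whose levels followed *Nqo1* most closely over the 45 mice were *Sorcs3* (Spearman rho 0.92), *Pepd* (0.92), *Selenbp1* (0.92), *Insl6* (0.91) and *Tmem86b* (0.91), among 12411 genes with a mean of at least 1 CPM. These points share the dose series, so this is a description with no test. The members nearest to *Nqo1* were *Nfe2l2* (0.87) and *Srxn1* (0.77), followed by *Hmox1* (0.51), and *Gclc* was at 0.05 and *Gclm* at -0.31. Over the 9 group means a Pearson correlation named 5 other genes, *Nfs1*, *Nfe2l2*, *Ier3*, *Slc3a2* and *Hexa*, of which none was among the first 5.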

How the data were processed

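The 45 samples were grouped by the dose in their labels. The deposited values are raw read counts per Ensembl gene, which the authors made from single-end reads mapped to GRCm38 with Bowtie and TopHat and counted with HTSeq in its intersection-nonempty mode. The submitters' processing notes give FastQC 0.11.2, TopHat 1.4.1, SAMtools 0.1.19 and HTSeq 0.6.1. Reads with more than 1 alignment were not counted, and of uniquely aligned reads 9.11% to 17.1% fell on no gene and 1.34% to 2.07% were ambiguous. These rows were left out of library sizes. Depth was 11.8 M to 56.5 M reads per mouse.

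Genes with more than 4 reads in any mouse were tested in R 4.3.3 by edgeR 4.0.16 after TMM scaling, with 1 coefficient per group, all 45 mice in 1 quasi-likelihood fit and Benjamini-Hochberg adjustment within each comparison. The SE of a log2 fold change is its size divided by the square root of F, and 95% intervals use 36 residual degrees of freedom. Log2 CPM has a prior count of 2. The fit was tested on simulated counts. Positions and exon lengths are from GENCODE for GRCm38. Python 3.11.15 with scipy 1.17.1 was used for the permutation tests and matplotlib 3.10.9 for figures. Alternatives were another scaling, other filters, DESeq2 1.42.0, fits of single doses and each mouse left out.

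The named genes are the 10 members, at most 4 called genes per list (the 2 highest and the 2 lowest log2 fold changes at 30 µg/kg) and the 5 genes most like *Nqo1*. The members and lists were chosen with earlier results of these data known. The mice are separate animals, the labels give no sequencing pools, and no comparison could be made within pools.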

Additional observations from a re-analysis of the deposited data

Results flagged for a closer look

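Of 98 sets of 5 values examined (each member in each dose group, and each ratio in the vehicle and 30 µg/kg groups), 4 held a mouse far from the other 4 by Dixon's test, which by chance marks about 1 set in 20. *Hmox1* in 0.01 µg/kg mouse 5 was at 37.7 CPM, against 9.43 to 14.7 CPM in the other 4 mice, and this mouse also had the highest macrophage marker sum of the study. *Nfe2l2* in 0.3 µg/kg mouse 1 was at 126.5 CPM, against 112 to 115 CPM. *Slc7a11* was at 0.0708 CPM in vehicle mouse 1 and at 0.0626 CPM in 0.01 µg/kg mouse 5, where the other 4 mice of each group had 0 reads, and these values rest on 1 read and 3 reads.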

How the results depend on the processing

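No member was lower at any dose under any alternative, 0 in each, and no called result was reversed. The uncalled changes of *Keap1* and *Gclm* at 30 µg/kg turned in sign without TMM scaling, from -0.06 to 0.16 and from -0.14 to 0.08. Of 872 alternative values, 819 were classed as unchanged. That class holds values on the same side of the threshold, including uncalled ones that turned in sign. It also holds midpoints within their jackknife SE and counts that were equal or of similar size, such as 7 members called at 30 µg/kg in place of 5. With only the vehicle and the dose compared, the members called higher were 0 at 0.3 µg/kg and 5 at 10 µg/kg. Without TMM scaling 1 member passed the fold change of at least 2 at 1 µg/kg, and 8 pathway genes were lower at 30 µg/kg in place of 14. The midpoint dose of *Hmox1* was 7.95 µg/kg with group medians. With each mouse left out, the members called higher ran from 0 to 1 at 0.3 µg/kg and from 4 to 5 at 30 µg/kg. Those with a fold change of at least 2 ran from 0 to 1 at 1 µg/kg and from 2 to 4 at 30 µg/kg, the lowest without vehicle mouse 2 or 4 or 30 µg/kg mouse 2 or 5. The *Slc7a11* call ended without vehicle mouse 2, 3, 4 or 5 or 30 µg/kg mouse 1, 2 or 5. From 10 to 30 µg/kg, the *Nqo1* call ended without 10 µg/kg mouse 1, 3, 4 or 5 or 30 µg/kg mouse 1, 2 or 5, and the *Nfe2l2* call without 10 µg/kg mouse 1, 3, 4 or 5 or 30 µg/kg mouse 1, 3 or 5, and also with no filter on low counts (adjusted p = 0.0589). The causes were not tested. Leaving out 0.01 µg/kg mouse 5, which was chosen after seeing the data, ended no call. DESeq2 gave no adjusted p for *Slc7a11* at several doses. No paired analysis was possible because the labels give the mice no number shared between groups. Among the members depth limits *Slc7a11*, whose vehicle level rests on 1 read, and among the listed genes *Gpx2* and *Aldh3a1* had 2 and 0 vehicle reads.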
